A study of Mus musculus with 10 samples.

Results

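Away from gene starts, 19354 regions carried H3K27me3 in control cells by both of the assays used in the study, ChIP-seq and CUT&RUN. They were chosen from the peak calls themselves: a ChIP-seq peak was taken when it shared at least 1 bp with a CUT&RUN peak and did not touch the window of 1 kb either side of the 5′ end of a gene in the count table. The rule left 19354 of 41159 ChIP-seq peaks (47.0%), which is 90.4% of the 21406 ChIP-seq peaks that overlapped one of the 66242 CUT&RUN peaks. Of them, 10839 (56.0%, exact 95% interval 55.3 to 56.7%) lay at least partly inside a gene span and 8515 lay outside every gene span. Intervals of shares here cover counting error only.

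The cells were E14 mouse embryonic stem cells in which NPM1, a nucleolar histone chaperone, is fused to an auxin-inducible degron, so that adding auxin leads to loss of the protein. All cells, controls included, carried the degron and were grown with LIF and 2 inhibitors (PD0325901 against MEK at 1 µM, CHIR99021 against GSK3 at 3 µM), then arrested in G1 and released. ChIP-seq was done in 1 sample after 6 h without auxin, and CUT&RUN in 1 control sample after 12 h, so the peaks have no replicate and the 2 assays also differ in time. RNA was measured 12 h after release in 2 libraries without auxin and 2 with auxin, of 13353446 to 16046290 counts each. The headers of the count table name 1 clone, and nothing says whether the 2 libraries of a group were separate cultures. H3K27me3 after auxin was not analysed here, so what follows is the position of the mark in control cells and the RNA of the genes under it.

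H3K27me3 is written by Polycomb repressive complex 2 (PRC2), whose catalytic subunit is EZH1 or EZH2. The EED subunit binds the finished mark and stimulates the enzyme, which lets a domain spread from where it was started and be copied onto newly assembled nucleosomes after DNA replication. In embryonic stem cells the mark is best known from CpG-rich promoters of silent developmental genes, where it often coexists with H3K4me3, but it also covers gene bodies and stretches between genes. The regions described here are of the latter kinds.

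The rule removed the 5′ ends of the count table, so the starts that remained in these regions were RefSeq starts at other positions, of genes in the table or of others. A RefSeq transcription start (GRCm38.p6, the mm10 assembly) lay in 190 of the 19354 regions (0.982%), against 341 of the 2052 shared peaks at 5′ ends (16.6%). For 123 RefSeq starts the whole 250 bases upstream lay within a region. By a GC content over 50% and a ratio of observed to expected CG dinucleotides over 0.6, 5 of these 123 were CpG-rich (4.07%, exact 95% interval 1.33 to 9.23%). The share was 4.35% of 46 starts in peaks of ChIP-seq alone away from 5′ ends, 20.8% of 226 in shared peaks at 5′ ends and 30.8% of 32851 RefSeq starts in all. Gene type differed between these sets, since 76 of the 123 were starts of long noncoding RNAs, against 55 of the 226. Among coding genes the share was 8.51% of 47 starts in the regions, 20.5% of 171 in shared peaks at 5′ ends and 41.2% of all. At least 1 CG was found in 96.7% of the 123 sequences and in 92.1% of all.

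The sequences below are the 250 bases upstream of 8 such starts, in lower case with each CG dinucleotide in capitals (CG reads the same on both strands). They show the range from CG-dense to CG-poor DNA under the mark. Among starts of coding genes whose upstream bases touch no exon of the count table, the first 5 have the most CG and the last 3 the fewest.

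Pfkfb3, chr2:11553930-11554179, minus strand: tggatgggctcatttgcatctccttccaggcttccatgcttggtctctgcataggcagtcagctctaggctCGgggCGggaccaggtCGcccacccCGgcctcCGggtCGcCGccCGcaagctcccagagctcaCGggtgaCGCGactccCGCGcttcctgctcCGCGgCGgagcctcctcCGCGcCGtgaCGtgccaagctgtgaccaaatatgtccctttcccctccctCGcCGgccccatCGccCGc
Hoxa10, chr6:52234940-52235189, minus strand: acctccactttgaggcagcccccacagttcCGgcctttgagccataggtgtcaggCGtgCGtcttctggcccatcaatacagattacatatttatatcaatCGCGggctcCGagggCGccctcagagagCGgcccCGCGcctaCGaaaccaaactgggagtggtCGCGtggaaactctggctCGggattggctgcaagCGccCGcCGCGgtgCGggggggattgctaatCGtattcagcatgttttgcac
Osbpl5, chr7:143740361-143740610, minus strand: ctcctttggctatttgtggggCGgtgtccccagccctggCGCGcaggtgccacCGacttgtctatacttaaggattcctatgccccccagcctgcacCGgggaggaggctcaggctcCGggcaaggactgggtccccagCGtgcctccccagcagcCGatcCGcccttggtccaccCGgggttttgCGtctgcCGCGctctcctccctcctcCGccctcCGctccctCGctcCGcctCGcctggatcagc
Ntf3, chr6:126164961-126165210, minus strand: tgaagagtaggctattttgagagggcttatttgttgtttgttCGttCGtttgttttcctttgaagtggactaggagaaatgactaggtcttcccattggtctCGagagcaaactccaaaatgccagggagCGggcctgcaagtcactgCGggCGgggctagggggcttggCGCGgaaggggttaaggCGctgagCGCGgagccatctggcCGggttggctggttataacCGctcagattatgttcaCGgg
Pmp22, chr11:63131207-63131456, plus strand: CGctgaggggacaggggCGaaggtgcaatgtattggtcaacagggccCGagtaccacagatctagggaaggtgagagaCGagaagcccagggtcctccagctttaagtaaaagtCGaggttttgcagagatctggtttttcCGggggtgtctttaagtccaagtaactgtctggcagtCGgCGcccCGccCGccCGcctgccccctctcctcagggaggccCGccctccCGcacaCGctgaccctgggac
Plch2, chr4:155011026-155011275, minus strand: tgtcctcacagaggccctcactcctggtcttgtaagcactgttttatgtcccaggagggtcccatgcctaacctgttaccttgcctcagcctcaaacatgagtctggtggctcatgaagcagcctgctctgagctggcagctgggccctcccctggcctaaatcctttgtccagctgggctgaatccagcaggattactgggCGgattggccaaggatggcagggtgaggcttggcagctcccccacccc
Sstr3, chr15:78541407-78541656, minus strand: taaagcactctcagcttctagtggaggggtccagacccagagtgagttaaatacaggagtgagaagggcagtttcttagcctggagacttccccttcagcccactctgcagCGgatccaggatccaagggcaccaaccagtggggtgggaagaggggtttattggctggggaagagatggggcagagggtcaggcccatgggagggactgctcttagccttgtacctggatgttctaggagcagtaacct
Myl2, chr5:122092474-122092723, plus strand: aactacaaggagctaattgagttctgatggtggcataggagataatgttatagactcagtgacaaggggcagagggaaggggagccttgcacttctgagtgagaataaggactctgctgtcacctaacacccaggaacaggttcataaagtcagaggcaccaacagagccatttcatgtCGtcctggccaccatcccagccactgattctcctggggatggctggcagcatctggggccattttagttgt

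Pfkfb3, a regulator of glycolysis, has 24 CG here and a GC content of 68.4%, in a region of only 289 bp. Hoxa10, a homeobox factor of posterior identity, has 20 CG, and its region is 2600 bp wide. Osbpl5, an oxysterol-binding protein, has 18, and Ntf3, the neurotrophin NT-3, and Pmp22, a myelin protein, have 14 each. The upstream bases of Plch2, a phospholipase C, Sstr3, a somatostatin receptor, and Myl2, a cardiac myosin light chain, each hold 1 CG. The regions over these 3 CG-poor starts were 1031 to 3687 bp wide, and those over the 5 CG-dense starts 289 to 2600 bp.

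The regions were short compared with the domains in which they lay. Their median width was 498 bp (quartiles 356 and 748 bp), 514 bp inside gene spans and 481 bp outside. Shared peaks at 5′ ends had a median of 635.5 bp and ChIP-seq peaks found by that assay alone, away from 5′ ends, one of 392 bp. Wider peaks meet an overlap rule of 1 bp more easily, so the rule itself favours width in the shared classes. The narrowest width in the list, 289 bp, was that of 2250 regions, and 383 regions (1.98%) reached 2000 bp. Together they covered 12.3 Mb. Most were weak peaks: 3148 of them remained when both lists were held to a −log10 q of at least 2, and 75 at 3. The fold enrichment the authors' peak caller gave was nearly the same in every class, with medians of 3.35 inside gene spans, 3.31 outside, 3.44 at 5′ ends and 3.24 for peaks of ChIP-seq alone.

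**Figure D1:**
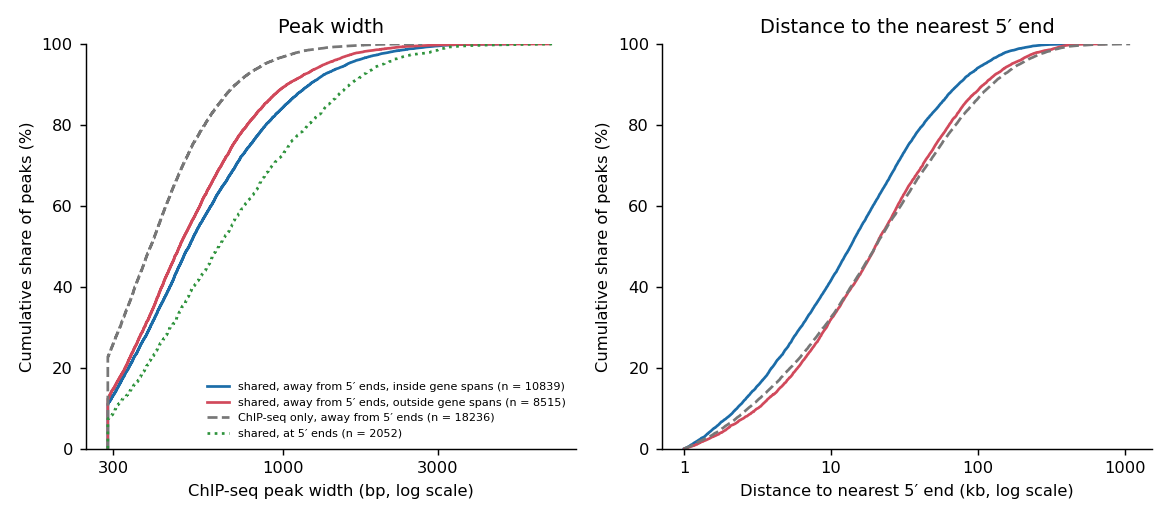
Cumulative share of ChIP-seq peaks (y axis, %) by width (left, bp, log scale) and by distance to the nearest 5′ end (right, kb, log scale). Shared regions inside (blue, n = 10839) and outside gene spans (red, n = 8515) are wider than peaks of ChIP-seq alone (grey, n = 18236) and narrower than shared peaks at 5′ ends (green, n = 2052). The overlap rule itself favours wider peaks. Regions inside gene spans lie closest to a 5′ end.

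CUT&RUN drew the same chromatin in larger pieces. The regions fell in 13593 CUT&RUN peaks with a median width of 1822 bp, against 745 bp for the other CUT&RUN peaks. A wider CUT&RUN peak meets the 1 bp rule more easily, so the rule itself favours width here. Most of these CUT&RUN peaks held 1 region (73.3%), and 9.25% held at least 3. CUT&RUN peaks covered 59.0% of the regions completely and 19.1% by less than 50% of their length. For 9.10% of the regions the overlapping CUT&RUN peak extended into the window around a 5′ end, which was more frequent inside gene spans (11.3%) than outside (6.29%). For the others it ended before such a window.

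The 5 CUT&RUN peaks with the most regions held 11 to 16. A peak of 20600 bp held 16 regions in Syt7, a synaptotagmin that senses calcium in exocytosis (chr19:10414875-10435474). One of 16672 bp held 13 in Kcnq1, a potassium channel of an imprinted domain (chr7:143182436-143199107). One of 19528 bp held 12 in Wnt9b, a Wnt ligand (chr11:103727890-103747417). One of 19056 bp that overlapped Hoxb3 and Hoxb4 held 11 (chr11:96320654-96339709), as did one of 19040 bp on chromosome 16 (chr16:18603366-18622405).

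Regions also came in runs. When regions no more than 5 kb apart were joined, 9798 clusters resulted, of which 60.5% were single regions. The 716 clusters of 5 or more held 28.0% of all regions. The largest held 34 regions over 71.4 kb. The next held 33 regions over 81.5 kb that overlap Nfix, a nuclear factor I gene (chr8:84731657-84813200), and another 26 over 49.7 kb that overlap Syt7. Clusters of 25 and 22 regions on chromosome 5 (chr5:33539809-33589289 and chr5:33435991-33480039) lay outside gene spans of the table, and another of 24 regions overlapped Fgfr3, a fibroblast growth factor receptor (chr5:33685045-33733363).

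The median distance to the nearest 5′ end was 16.1 kb, 13.6 kb inside gene spans and 20.0 kb outside, and 20.2 kb for peaks of ChIP-seq alone. Within 5 kb of a 5′ end lay 21.3% of the regions, and 20.7% were over 50 kb away. The farthest was 717 kb from the 5′ end of Rbfox1, a neuronal splicing regulator. The nearest 5′ end itself bore a peak in both lists for 33.7% of the regions, although such starts made up 5.95% of the 32968 placed genes. It bore a peak in neither list for 37.2%, and more often so outside (44.0%) than inside gene spans (31.9%).

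The peaks on both sides of the 1 kb limit had overlapping widths and folds. The 5 regions nearest outside it lay 1001 to 1005 bp from a 5′ end and were 320 to 947 bp wide with a fold of 2.85 to 3.76; the first was at Pax6, the eye and neural homeobox gene. The 5 shared peaks nearest inside it lay 998 to 1000 bp away and were 379 to 1304 bp wide with a fold of 3.03 to 4.27. Regions 1 to 2 kb from a 5′ end had a median width of 560 bp, against 598 bp for shared peaks that touched the window without reaching the 5′ end and 451.5 bp for regions over 100 kb away.

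Inside genes the mark was mostly intronic but touched exons more than gene spans in general. Exons made up 16.4% of the gene-span bases of these regions, 8.09% of all gene-span bases, 15.2% in peaks of ChIP-seq alone and 34.2% in shared peaks at 5′ ends. An exon was touched by 32.7% of the regions inside genes and by 27.3% of peaks of ChIP-seq alone. Spans of over 20 kb were divided into 5 equal parts. Of 8146 regions in exactly 1 such span, 23.6% lay in the part next to the 5′ end and 18.1 to 19.7% in each of the other parts. Along long genes the regions were spread nearly evenly, but the rule had already taken out the shared peaks at 5′ ends.

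The widest region inside a gene was 4966 bp over exons of Nr5a1, which encodes steroidogenic factor 1 (chr2:38705551-38710516, fold 3.97). Regions of 4935 and 4425 bp lay in introns of Cbfa2t3, a transcriptional corepressor (chr8:122672927-122677861 and chr8:122684346-122688770), and one of 4851 bp in an intron of Nfix (chr8:84786390-84791240). One of 4605 bp reached exons of Ptchd2, a patched-domain gene (chr4:148271461-148276065). The highest folds were 5.91 over 383 bp of Fer1l4 (chr2:156047062-156047444), 5.76 over 971 bp of the zinc finger gene Zfp579 (chr7:4993986-4994956), 5.54 over 723 bp of Stac2, 5.34 over 2671 bp of an intron of Nfix and 5.31 over 390 bp of Wnt10a, a Wnt ligand.

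Of the 5 widest regions outside genes, 3 had a neural transcription factor gene as the nearest. One of 6629 bp lay 7.02 kb from the 5′ end of Neurod2 (chr11:98316002-98322630, fold 4.50), one of 5067 bp 1.12 kb from Onecut3 (chr10:80488649-80493715) and one of 4932 bp 6.58 kb from Npas4 (chr19:4996549-5001480). The next had as nearest gene Mafa, a pancreatic beta cell factor (4486 bp), and Fbxo2, an F-box protein (4160 bp). The highest folds outside genes were 5.60 near Pax2, a kidney and midbrain factor, 5.54 near the somatostatin receptor gene Sstr5, 5.46 near Hoxb8, 5.43 near Six2 and 5.41 near the microRNA gene Mir9-3. At all 10 of these regions outside genes the nearest 5′ end also bore a peak, in both lists at 8. Outside genes means outside the spans of the count table. The RefSeq spans of Npas4, Pax2, Six2 and Hoxb8 held 6, 22, 5 and 1 regions, against 2, 17, 1 and 0 in their table spans. Whether the regions named here are among them was not tested.

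The regions were unevenly shared out among chromosomes. Their density over all chromosomes was 7.36 per Mb, with 15.5 per Mb on chromosome 11 and 14.2 on chromosome 8, which together held 19.2% of the regions on 9.55% of the length. Chromosome X had 5 regions, or 0.0293 per Mb, where both lists were sparse: 47 ChIP-seq peaks away from 5′ ends and 236 CUT&RUN peaks. On chromosome 14 (2.55 per Mb) the CUT&RUN list had a sparse stretch. Of its ChIP-seq peaks away from 5′ ends, 27.9% were shared, against 46.8 to 55.5% on the other autosomes. Between 50 and 80 Mb only 46 of 545 were shared (8.44%), against 244 of 464 (52.6%) between 20 and 40 Mb. The 3 bins of 10 Mb concerned held 44, 56 and 38 CUT&RUN peaks, and the 2 bins from 20 to 40 Mb 445 and 455. Over 157 bins with at least 50 ChIP-seq peaks the median share was 52.0%, and the lowest outside that stretch was 30.8%. Leaving chromosome 14 out altogether (chosen after seeing the data) kept 19036 regions, 55.9% of them inside gene spans.

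**Figure D2:**
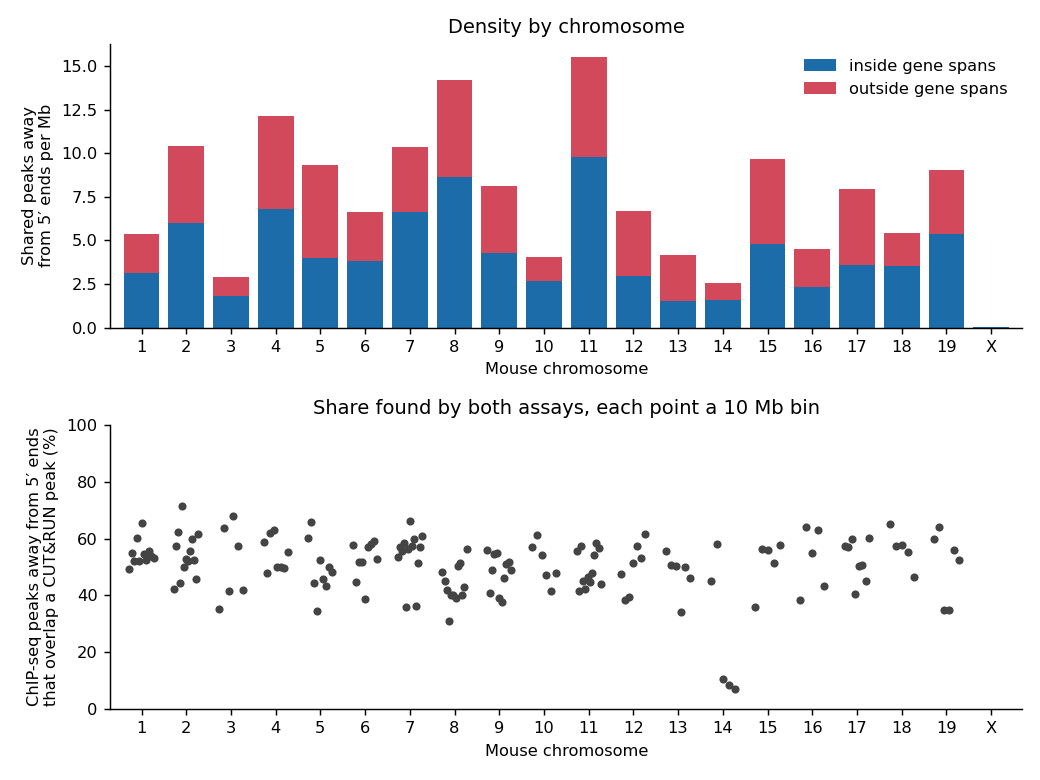
Top, shared regions away from 5′ ends per Mb of each mouse chromosome, inside (blue) and outside gene spans (red). Bottom, the percentage of ChIP-seq peaks away from 5′ ends that overlap a CUT&RUN peak, where each point is a 10 Mb bin with at least 50 such peaks; 3 bins of chromosome 14 stand at 7.04 to 10.4%, below every other bin.

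The regions lay in 3122 of 32968 genes (9.47%), called host genes here. A single region was held by 1310 of them, while 233 genes with at least 10 held 4388 regions. The host's own 5′ end bore a peak in both lists in 1044 genes, in ChIP-seq alone in 364, in CUT&RUN alone in 620 and in neither in 1094. The last group is called hosts with a bare 5′ end, the 5′ end being the outermost one of the gene in the count table.

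By covered bases, the leading entry was Gm20388, a table entry described below, followed by Rbfox3. Rbfox3, a neuronal splicing factor known as NeuN, held 100 regions over 91407 bp, 21.7% of its span on chromosome 11. Lmx1b, a LIM homeobox gene of dorsal limb and midbrain, held 31 regions over 55.5% of its span, the densest cover among the leading genes. Kcnq1 held 58 (12.5% of its span), Nfix 38 (38.5%), Kcnip1, a channel-interacting protein, 54 (10.3%), and Atp2b2, a plasma membrane calcium pump, 58 (12.5%). The first and last of the 8 leading entries rest on the table's gene models: Gm20388 has a span of 4435 kb with 431 regions and no read in any library, and Fgfr2 a span of 2961 kb with 69 regions, of which 3 fall in the RefSeq span of that gene.

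Among the gene lists, channels, matrix genes and adhesion genes held regions most often. Of 122 voltage-gated channel genes 68 were hosts (55.7%), of 55 collagens and laminins 29 (52.7%) and of 66 cadherins and protocadherins 29 (43.9%). Developmental transcription factors followed with 71 of 165 (43.0%), neurotransmitter receptors with 40 of 97 (41.2%), Wnt ligands and receptors with 17 of 43 (39.5%) and Hox genes with 15 of 38 (39.5%). Lower shares were seen for axon guidance (22 of 69), the Notch pathway (6 of 21), BMP, Nodal and activin signalling (13 of 49) and subunits of PRC2 and PRC1 (3 of 30), and 5 of 14 fibroblast markers were hosts. None of 87 cytosolic ribosomal protein genes was a host, and of 15 pluripotency genes only Esrrb was. Span differs between the lists: its median was 114 kb for collagens and laminins, 41.1 kb for channels, 3.59 kb for Hox genes and 3.22 kb for ribosomal proteins, and its part in these shares was not tested. Hox genes and developmental factors, the latter with a median span of 5.81 kb, had shares near that of the cadherins, with a median span of 38.8 kb.

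**Figure D3:**
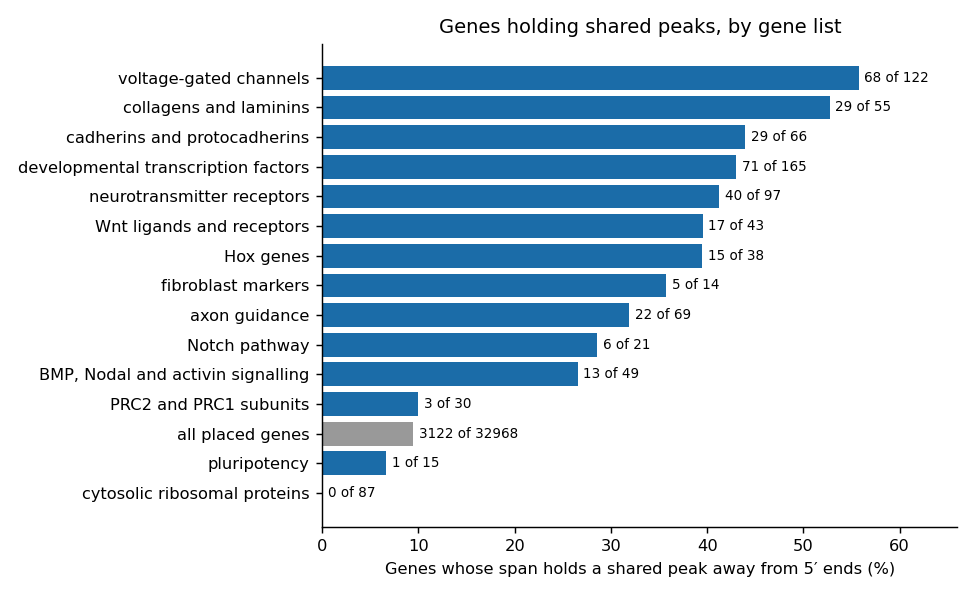
Percentage of the genes of each list whose span holds at least 1 shared region away from 5′ ends (bars, x axis from 0), with the number of genes beside each bar and all placed genes in grey. Channels reach 55.7% and collagens and laminins 52.7%, all genes 9.47% and ribosomal proteins 0.

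The genes with the most regions differed in number by list. Cdh23, a cadherin of hair cells, held 59 regions, Cdh22 and Cdh4 31 each and Cdh13 24. Kcnd3, a potassium channel, held 41, Cacna1i, a T-type calcium channel, 29 and Cacng2, a calcium channel subunit, 24. Gabbr2, a GABA-B receptor subunit, held 41, and Grm4, a glutamate receptor, 19. Slit3 held 20, and the netrin receptor gene Unc5a and the ephrin receptor gene Ephb1 19 each. Wnt3 held 17 and Wnt7b 16, in a sequence of regions that covered 38.3% and 24.3% of their spans. In the Hox clusters, Hoxb3 held 12 regions over 52.7% of its span, Hoxa3 9 and Hoxd3 6.

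Highly expressed genes were scarcer among hosts in control cells, while the typical level was as low in other genes. The upper quartile of hosts was 0.358 CPM per kb of exon without auxin, against 4.91 in placed genes that were no host (CPM, the usual count scaled by library size, here with TMM factors). The medians were 0.0515 and 0.0419. In hosts with a bare 5′ end the upper quartile was 0.637, and in hosts with a 5′ peak in both lists 0.230. No read in either control library was found for 27.3% of hosts and 45.8% of other genes. In bulk RNA, fewer cells expressing a gene and less RNA per cell cannot be told apart. The cells expressed the markers of their labelled type: the 15 pluripotency markers summed to 9049 and 9180 CPM without auxin and 8459 and 8599 with it, and none was at 0. The sums hide changes in both directions, since edgeR called 3 of these 15 genes higher and 9 lower with auxin. The 14 fibroblast markers summed to 26.6 and 33.1 CPM without auxin and 38.3 and 45.4 with it, and none of them was at 0 in all libraries; their part in the results below was not tested.

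Auxin raised the RNA of host genes more often than it lowered it. Of 13522 genes tested with edgeR, 13.0% were higher and 14.5% lower with auxin at an adjusted p under 0.05 (1759 and 1964 genes; with upper-quartile factors 2024 and 1698). Of the 3122 hosts, 1206 passed the expression filter; 246 of them rose (20.4%) and 49 fell (4.06%), with a median log2 fold change of 0.25 against 0.01 over all genes tested. Of the 1094 hosts with a bare 5′ end, 503 passed; 104 rose (20.7%) and 23 fell (4.57%), with a median of 0.21. The rule for the regions uses no RNA value. The filter can pass a gene through the group where it is high, and the other hosts were not tested.

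Rises were the more frequent direction whatever the mark at the host's 5′ end. Among tested hosts, 58 of 341 with a 5′ peak in both lists rose and 10 fell (17.0% and 2.93%), 47 of 180 with one in ChIP-seq alone rose and 7 fell, and 37 of 182 with one in CUT&RUN alone rose and 9 fell; differences between these groups were not tested. Genes with a bare 5′ end and no region rose in 11.9% and fell in 16.1% of 11557 cases. Genes with no region but a marked 5′ end also rose more often than they fell. With a 5′ peak in both lists, 20.5% of 171 such genes rose and 4.68% fell. With one in ChIP-seq alone the shares were 20.7% and 7.02% of 242, and in CUT&RUN alone 14.7% and 8.24% of 340. The number of regions had no clear order with the shares: 22.1% of bare hosts with 1 region rose, 18.7% with 2 or 3, 19.8% with 4 to 9 and 20.7% with 10 or more.

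The level of a gene moved with the direction of its change. Levels here are means over the libraries of both groups, so the change with auxin itself enters the level. Over 30 CPM, 11.7% of 6062 placed genes rose and 26.5% fell, while from 1 to 3 CPM 11.9% of 1594 rose and 3.45% fell. At matched levels the hosts with a bare 5′ end rose in 17.2% of 151 genes at 1 to 3 CPM (all genes 11.9%), in 26.8% of 149 at 3 to 10 CPM (17.3%), in 23.3% of 86 at 10 to 30 CPM (14.6%) and in 19.6% of 51 above (11.7%). They fell in 3.31% (3.45%), 3.36% (4.51%), 5.81% (6.46%) and 11.8% (26.5%). Up to 1 CPM, 12.1% of 66 rose (7.95%) and 3.03% fell (2.41%). The share of rises was above that of all genes at each level, while the share of falls was lower by far only above 30 CPM and was not lower up to 1 CPM (2 of 66 genes). These are counts without a test of the difference.

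The number of calls varied with the fit. When every gene with a read was kept for the test, edgeR called 294 hosts higher and 69 lower. These were 11.8% and 2.76% of the hosts tested, against 10.2% and 11.3% of all genes in that fit. DESeq2 called 113 hosts higher and 25 lower, and 50 and 11 of those with a bare 5′ end. These were 9.37% and 2.07% of tested hosts and 9.94% and 2.19% of those with a bare 5′ end. Of all genes tested, DESeq2 called 7.02% higher and 10.2% lower. Without control replicate 1, edgeR called 160 and 33 hosts, and 65 and 15 with a bare 5′ end.

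**Figure D4:**
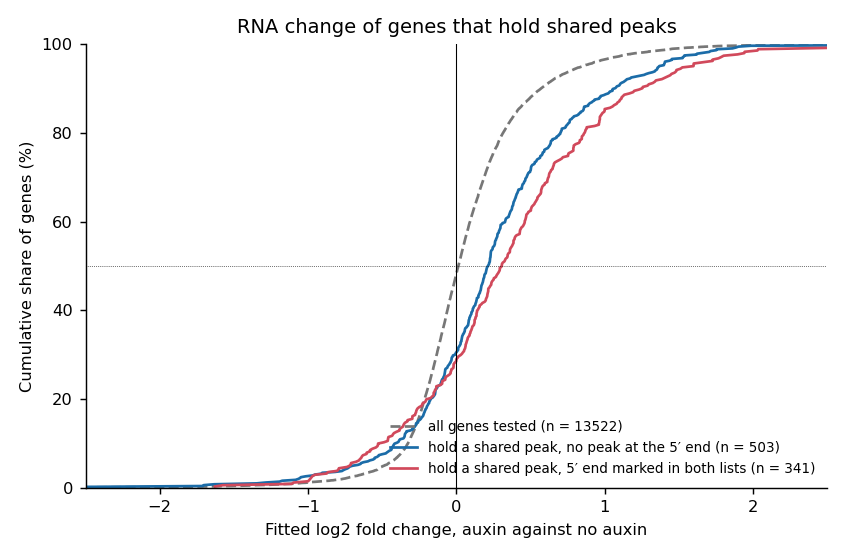
Cumulative share of tested genes (y axis, %) by fitted log2 fold change with auxin against without (x axis). The curves of hosts with no peak at the 5′ end (blue, n = 503) and with a 5′ peak in both lists (red, n = 341) cross 50% at 0.21 and 0.31, and that of all genes tested (grey, n = 13522) at 0.01.

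Control libraries are those without auxin, and values are given as replicate 1 and replicate 2. Among hosts with a bare 5′ end, the largest rise was that of Cyp1a1, an aryl hydrocarbon receptor target, from 0.492 and 0.475 CPM to 129 and 109 CPM (edgeR adjusted p = 5.28e-10; log2 fold change 7.91, SE 0.18); it holds 1 region of 394 bp. The T cell coreceptor Cd4, with 2 regions, went from 0.351 and 0.475 to 3.02 and 5.70 CPM. Ap3b2, a subunit of the neuronal AP-3 adaptor, held 6 regions and went from 6.32 and 7.73 to 27.3 and 24.8 CPM (adjusted p = 4.29e-06, log2 fold change 1.88 with an SE of 0.13). Separate groups were a condition for naming these genes, and 33.0% of all genes tested were higher in both auxin libraries than in both others. Ap3b2 had the most regions of the 12 genes with the largest rises.

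Ttll6, a tubulin polyglutamylase, stood at 4.29 and 5.09 CPM without auxin and 12.9 and 16.7 with it (3.17-fold, adjusted p = 8.51e-05). Prmt8, a membrane-bound arginine methyltransferase of neurons, stood at 1.9 and 1.56 against 4.57 and 6.0 CPM (3.08-fold). Tbx2, a T-box repressor of heart and limb, stood at 0.562 and 0.407 against 1.25 and 1.9 CPM (3.28-fold, adjusted p = 0.0109), under 3 regions that covered 54.0% of its span. Tbx2 was the most widely covered of the genes with a bare 5′ end that rose furthest. The other rises, of 3.26- to 3.96-fold from under 0.7 CPM, were those of the nucleoside transporter gene Slc28a3, the lipid-binding protein gene Sec14l5, the zinc finger gene Zfp385b, the M-band gene Myom3, the ubiquitin ligase gene Trim17 and 1700016D06Rik. The region of Slc28a3 lies outside its RefSeq span, and Sec14l5 shares 1 bp with its region.

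The 8 hosts with a bare 5′ end that fell furthest had spans of 26.3 kb (Atcay) to 1054 kb (Gpc6) and 1 to 4 regions. Zfp423, a zinc finger factor of neural and fat cell development, held 4 regions and went from 48.7 and 46.9 to 14.7 and 14.6 CPM (edgeR adjusted p = 5.35e-07, log2 fold change −1.71 with an SE of 0.09). Parvb, a focal adhesion protein, went from 107 and 124 to 49.0 and 53.3 CPM (2.26-fold lower, adjusted p = 4.29e-06). Itga9, an integrin subunit, went from 12.9 and 13.6 to 3.32 and 4.69 CPM (3.26-fold lower). In these 3 genes the replicates lay close together. Groups that did not overlap were a condition for naming, and 31.8% of all genes tested were lower in both auxin libraries than in both others. Grin2b, an NMDA receptor subunit, fell from 0.843 and 0.746 to 0.0737 and 0.178 CPM, near the lowest level counted. Cped1, Samd4, an RNA-binding translational repressor, Atcay, a neuronal protein, and Gpc6, a glypican, fell 3.10-, 2.54-, 2.44- and 2.28-fold.

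Of these 20 genes, Cyp1a1, Cd4, Slc28a3, Ap3b2, Ttll6, Prmt8, Zfp423, Itga9 and Parvb kept the call in every alternative that gave an adjusted p. Without control replicate 1 the adjusted p was 0.135 for 1700016D06Rik, 0.149 for Sec14l5, 0.0624 for Trim17, 0.0886 for Grin2b and 0.168 for Cped1. Without control replicate 2 it was 0.0764 for Zfp385b, 0.0506 for Myom3, 0.0646 for Tbx2, 0.0586 for Sec14l5, 0.0959 for Trim17, 0.0521 for Grin2b, 0.0788 for Cped1, 0.0625 for Atcay and 0.190 for Gpc6. Without auxin replicate 1 it was 0.129 for Sec14l5, 0.0959 for Trim17, 0.0692 for Grin2b, 0.160 for Cped1 and 0.0520 for Gpc6, and without auxin replicate 2 0.141 for Tbx2, 0.0621 for Cped1 and 0.185 for Atcay. DESeq2 gave 0.0530 for Samd4, 0.130 for Atcay and 0.124 for Gpc6.

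**Figure D5:**
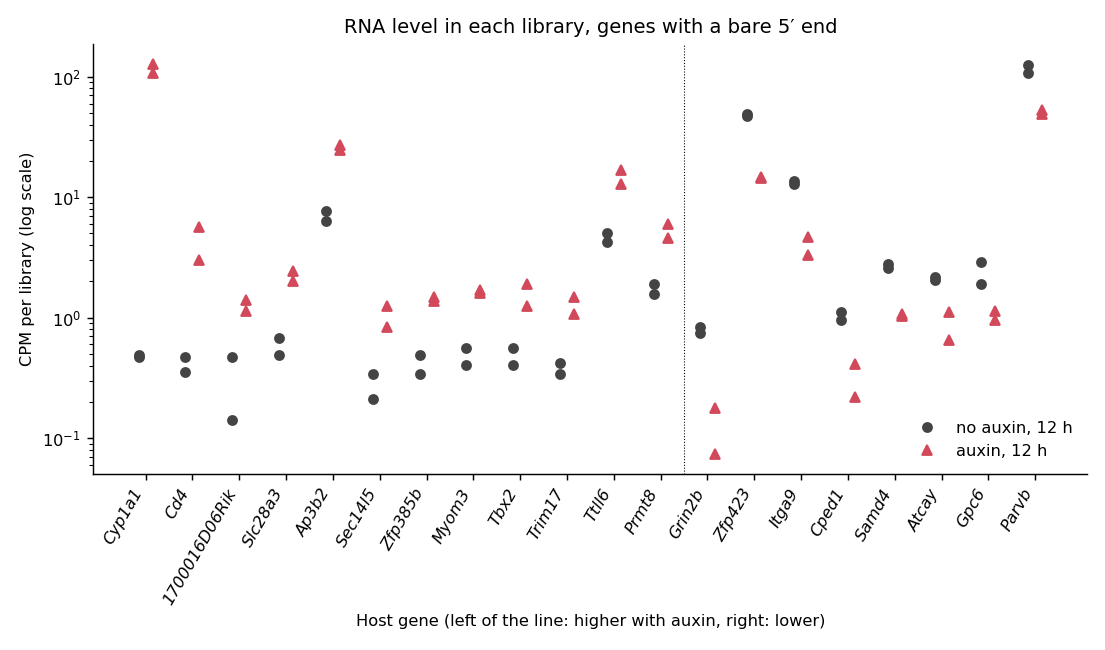
RNA level in CPM (log scale) of the 20 named hosts with a bare 5′ end in each of 2 control libraries (grey circles) and 2 with auxin (red triangles), 12 h after release. No gene has overlapping groups, since that was part of how they were chosen; Cyp1a1 spans 0.475 to 129 CPM and Parvb 49.0 to 124 CPM.

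Among hosts that are developmental transcription factors, rises far outnumbered falls. Of 37 tested hosts on that list 13 rose and 1 fell, with a median log2 fold change of 0.72, where 20.4% of all tested hosts rose and 4.06% fell; over the whole list 22 of 91 rose and 13 fell. Gata2, a factor of blood and trophoblast, held 5 regions and went from 10.9 and 13.1 to 30.7 and 52.2 CPM (3.48-fold, edgeR adjusted p = 0.000165). Its relative Gata3, with 3 regions, went from 6.67 and 8.48 to 15.0 and 17.7 CPM (2.16-fold). Msx1, a homeobox gene of mesenchyme and neural crest, went from 1.40 and 1.76 to 7.30 and 8.26 CPM (4.90-fold, adjusted p = 4.44e-05) under 1 region. Each of these 3 was higher in both auxin libraries than in both others, as were 33.0% of all genes tested and 47.5% of tested hosts.

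Further factors that rose included Onecut2 (3.73-fold) and Tbx15 (2.87-fold). Their calls held in every alternative that gave an adjusted p, as did those of Gata2, Gata3 and Msx1. Tbx5, a heart and forelimb factor with 11 regions, rose 4.09-fold, a call lost without control replicate 1 (adjusted p = 0.123). Without auxin replicate 2 the adjusted p was 0.254 for Hand1, 0.141 for Tbx2, 0.219 for Ebf4, 0.157 for Tbx4 and 0.120 for Isl1. Without control replicate 1 it was 0.119 for Hand1 and 0.149 for Ebf4, without control replicate 2 0.0646 for Tbx2, and with DESeq2 0.129 for Ebf4 and 0.102 for Isl1. The exception was Sox1, an early neural factor with 1 region and a bare 5′ end, which fell from 13.0 and 16.4 to 7.52 and 9.68 CPM (1.70-fold, adjusted p = 0.00558).

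Hox genes went the same way from low levels. Of 9 tested hosts edgeR called 5 higher and 0 lower, with a median of 0.84, and at an unadjusted p under 0.05 the counts were also 5 and 0; DESeq2 called 1 and 0. Over the list 10 of 23 rose, and DESeq2 called 4 higher. With edgeR 20.4% of all tested hosts rose and 4.06% fell. Hoxc4 went from 2.81 and 3.73 to 7.15 and 7.13 CPM (log2 fold change 1.12, edgeR adjusted p = 0.00194), and its call held throughout. Hoxa3, with 9 regions, went from 0.632 and 1.22 to 2.06 and 2.14 CPM, and its call was lost without control replicate 1 (adjusted p = 0.219), without auxin replicate 2 (0.0912) and with DESeq2 (0.174). Without auxin replicate 2 the adjusted p was 0.117 for Hoxc5, 0.517 for Hoxb4 and 0.311 for Hoxa7. Without control replicate 1 it was 0.110 for Hoxb4 and 0.197 for Hoxa7, without control replicate 2 0.113 for Hoxb4, and with DESeq2 0.0744 for Hoxc5 and 0.162 for Hoxa7. Hoxa10, whose alternative start is printed above, stood at 0.421 and 1.49 CPM without auxin and 1.18 and 1.48 with it, with overlapping groups (adjusted p = 0.489).

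Signalling and adhesion genes under the regions went both ways. Of 17 tested hosts among axon guidance genes 3 rose (Slit1, Efna2 and Sema6c) and 2 fell (Sema5b and Slit3). Of 9 tested Wnt hosts 1 rose (Wnt3) and 1 fell (Ror1). Of 8 tested cadherin hosts 1 rose (Fat2) and 2 fell (Cdh4 and Pcdh1). Over the whole lists, 16 of 57, 5 of 29 and 3 of 23 tested genes rose, and 8, 3 and 3 fell. Of all tested hosts 20.4% rose and 4.06% fell, and of all genes tested 13.0% and 14.5%. Differences from these shares were not tested. Slit1, a repellent ligand with 13 regions, went from 0.702 and 0.746 to 2.43 and 2.02 CPM (3.03-fold, edgeR adjusted p = 0.00503), while Slit3, with 20, went from 4.78 and 5.83 to 3.10 and 3.27 CPM (1.66-fold lower, adjusted p = 0.0232, lost with DESeq2 at 0.132, without control replicate 2 at 0.123 and without auxin replicate 1 at 0.0506). These are ligands of the same Robo receptors. Cdh4, R-cadherin, with 31 regions, went from 11.9 and 13.2 to 6.56 and 8.08 CPM (1.70-fold lower, adjusted p = 0.00371), and Fat2 rose 3.17-fold. Wnt3 went from 1.05 and 2.58 to 3.39 and 4.4 CPM, a call lost without control replicate 1 (adjusted p = 0.186), without auxin replicate 2 (0.0742) and with DESeq2 (0.0895). Without control replicate 1 the adjusted p was 0.198 for Ror1, 0.128 for Sema6c, 0.134 for Sema5b, 0.121 for Efna2 and 0.0678 for Pcdh1, and without control replicate 2 0.229 for Pcdh1. Without auxin replicate 1 it was 0.0944 for Sema6c and 0.225 for Pcdh1, and without auxin replicate 2 0.184 for Ror1, 0.0773 for Efna2 and 0.0501 for Pcdh1. DESeq2 gave 0.196 for Ror1, 0.103 for Sema6c, 0.0696 for Sema5b and 0.127 for Efna2.

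Channel and receptor genes changed in both directions. The counts below stand beside the 20.4% of all tested hosts that rose and the 4.06% that fell. Of 25 tested channel hosts 3 rose (Cacna1g, Kcnh3 and Kcnk6) and 1 fell (Hcn2); Cacna1g, a T-type calcium channel with 14 regions, went from 0.913 and 0.814 to 2.73 and 2.91 CPM (3.25-fold, edgeR adjusted p = 0.00210), and Hcn2, a pacemaker channel, from 15.3 and 17.4 to 10.0 and 10.4 CPM. The adjusted p of Kcnk6 was 0.374 without auxin replicate 2, 0.129 and 0.0586 without control replicate 1 and 2, and 0.198 with DESeq2. Of 13 tested neurotransmitter receptor hosts 2 rose and Grin2b fell, with the losses of Grin2b given above. The rises were those of Grm4 (3.16 and 2.31 against 9.07 and 6.36 CPM, 2.79-fold) and Chrna4 (2.07-fold, lost without auxin replicate 2). Col2a1, the cartilage collagen, rose 3.72-fold, the only call among 16 tested hosts that are collagens or laminins. Over that whole list 6 of 30 tested genes rose and 1 fell. With edgeR and with DESeq2, 0 of 5 tested hosts of BMP, Nodal and activin signalling and 0 of 3 of the Notch pathway were called; at an unadjusted p under 0.05 with edgeR the counts were 2 and 0. The median log2 fold changes of these hosts were 0.23 and 0.02. Over the whole lists edgeR called 8 of 32 tested BMP, Nodal and activin genes higher and 5 lower. It called 3 of 15 tested Notch genes higher and 0 lower. For the whole channel list 6 of 49 rose and 4 fell, and for neurotransmitter receptors 4 of 32 rose and 3 fell.

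Hosts made up 10.0% of Polycomb subunit genes and 6.67% of pluripotency genes, near the 9.47% of all placed genes. Phf19, a PRC2 accessory subunit that binds H3K36me3, stood at 2.46 and 3.73 against 4.06 and 3.15 CPM (edgeR adjusted p = 0.604), and Phc2, a PRC1 subunit, at 49.6 and 49.5 against 44.3 and 52.2 CPM (adjusted p = 0.807). Esrrb, an orphan nuclear receptor of naive pluripotency, combined 12 regions in its body and a 5′ peak in both lists with a high level, 1113 and 1057 CPM without auxin and 843 and 796 with it (1.32-fold lower, adjusted p = 0.000259). Of the fibroblast markers only Pdgfrb, with 2 regions, was called among 3 tested hosts (3.16 and 5.76 against 9.0 and 15.2 CPM, adjusted p = 0.00313, 0.0521 with DESeq2).

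Of the 8 genes with the most covered bases, 3 were expressed enough to be tested and 1 was called. Rbfox3 stood at 0.211 and 0.610 CPM without auxin and 0.664 and 0.356 with it, Kcnip1 had no read in any library and Kcnq1 at most 0.136 CPM. Lmx1b stood at 0.562 and 0.407 against 0.737 and 1.13 CPM (edgeR adjusted p = 0.139) and Nfix at 3.79 and 4.47 against 2.95 and 4.93 CPM (adjusted p = 0.913), whose groups overlap. Fgfr2, a fibroblast growth factor receptor, went from 2.6 and 3.53 to 9.36 and 7.36 CPM (2.70-fold, adjusted p = 0.000714), with the reservation on its span given above.

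Some regions outside the gene spans of the count table lay inside a RefSeq gene. This held for 24.1% of these 8515 regions, with a long noncoding RNA for 16.5% and a coding gene for 7.28%. Among them are genes that the table lists with a shorter span: the RefSeq spans of Lingo1, a neuronal leucine-rich repeat protein, Tbx5 and the calcium channel gene Cacna1c held 21, 14 and 13 of these regions. The 8515 regions lay upstream of the nearest 5′ end in 64.2% of cases. For 7544 of the 8515 that 5′ end was within 100 kb, which gave 3026 nearest genes, some of them hosts as well.

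The nearest genes rose somewhat more often than all genes. Of 1241 tested, 222 rose (17.9%) and 127 fell (10.2%), with a median log2 fold change of 0.09. Of the 846 that held no region themselves, 139 rose (16.4%) and 110 fell (13.0%), beside the 13.0% and 14.5% of all genes tested. Of the 681 that held no region and had a bare 5′ end, 105 rose (15.4%) and 96 fell (14.1%), with a median of 0.035. These last shares were near those of all genes tested. DESeq2 called 113 higher and 88 lower, or 9.11% and 7.09%, against 7.02% and 10.2% of all genes tested. Within 20 kb, 161 of 860 rose and 67 fell.

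Among nearest genes with no region in their span in the table (the RefSeq spans of Osgin1 and Slc6a5 hold 1 each), the largest rise was that of Csf3r, the granulocyte colony-stimulating factor receptor, from 0.0702 and 0.475 to 1.77 and 1.84 CPM (edgeR adjusted p = 0.00324). Olig3, a spinal cord factor, went from 0.562 and 0.271 to 1.70 and 1.84 CPM, and Ube2ql1, a ubiquitin-conjugating enzyme, from 2.04 and 3.32 to 8.55 and 11 CPM (3.66-fold, adjusted p = 0.000231). Osgin1 and Cybrd1, a ferric reductase, rose 4.80- and 3.33-fold from under 0.5 CPM, calls lost without control replicate 1 (adjusted p = 0.185 and 0.255), without auxin replicate 1 (0.122 and 0.0512) and, for Cybrd1, without auxin replicate 2 (0.107). Csf3r, Olig3 and Ube2ql1 kept the call in every alternative that gave an adjusted p, but DESeq2 gave none for Csf3r and Olig3.

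The falls were as large and from higher levels. Chrna9, an acetylcholine receptor subunit, went from 6.04 and 5.15 to 0.959 and 0.535 CPM (7.63-fold lower, edgeR adjusted p = 6.66e-05). Dusp4, a nuclear phosphatase of MAP kinases, went from 5.76 and 5.49 to 1.11 and 1.25 CPM (4.73-fold lower), Ccdc3, a secreted protein, from 7.38 and 7.19 to 2.21 and 2.20 CPM, and Gpr83, a receptor, from 13.3 and 11.9 to 3.98 and 3.92 CPM. Slc6a5, the neuronal glycine transporter, went from 1.55 and 1.29 to 0.369 and 0.297 CPM. These 5 kept their call in every alternative that gave an adjusted p, but DESeq2 gave none for Slc6a5. In none did the groups overlap, which was required for naming them.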

How the data were processed

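RNA was counted in 2 libraries without and 2 with auxin; per the file headers the authors' counts came from featureCounts over exons of mm10 genes on the reverse strand (STAR 2.6.1d and featureCounts 1.6.3 per the submitters' processing notes). The deposited broad peaks hold the caller's score, fold enrichment and −log10 p and q, per the submitters' processing notes with Bowtie2 2.4.1 and MACS2 2.1.1 among the tools; which control and cutoff served is not given in the sources used here, and 1 sample gave each list. The deposited score was read only to check the files.

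Members and gene lists were chosen with earlier results of these data known. Overlaps were computed in Python 3.11.15 with pandas 2.3.3, and peaks were compared with genes placed at a single locus. The test of counts was that of edgeR 4.0.16 under R 4.3.3 (TMM, filterByExpr, two-sided quasi-likelihood F test, Benjamini-Hochberg over all genes tested, adjusted p under 0.05), with DESeq2 1.42.0 as an alternative. P-values measure the spread between libraries, which may be technical. Scripts were tested on simulated data. RefSeq starts, sequences and RefSeq spans are of GRCm38.p6.

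Named genes were, by rule, the 12 largest rises and 8 largest falls among called hosts with a bare 5′ end, the 8 genes with the most covered bases, the 5 largest rises and 5 largest falls among called nearest genes, and up to 4 genes per list with the most covered bases. Rises and falls had to separate the libraries of the groups. Called hosts of the lists were named besides, after their values were seen; a few items are not reported here. Named regions were the 5 widest and the 5 of highest fold, inside and outside gene spans. Alternatives concerned the window, overlap, q limit, spans, nearest distance, normalization, low-count filter, tool, replicate block and each library left out.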

Additional observations from a re-analysis of the deposited data

How the results depend on the processing

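The number of regions depends most on the overlap and on the q limit: 1938 regions remained with 50% overlap in both directions, 3148 with a −log10 q of at least 2 and 75 with at least 3, against 19354. The share inside gene spans was 55.3% with a 2 kb window, 53.5% with 5 kb, 51.5% with 50% overlap in both directions, 66.9% and 73.3% at a −log10 q of at least 2 and 3, and 54.3% without spans over 2 Mb. DESeq2 called 2324 genes in all, 138 hosts, 61 hosts with a bare 5′ end and 201 nearest genes, where edgeR called 3723, 295, 127 and 349. At a −log10 q of at least 3 the called hosts were 5, and 2 with a bare 5′ end. With at least 500 bp of regions in the span, an alternative added after seeing the data, 78 hosts with a bare 5′ end were called, and 228 nearest genes were called within 20 kb. Leaving out 1 library gave 2482 to 3619 genes, 193 to 294 hosts, 80 to 114 hosts with a bare 5′ end and 243 to 353 nearest genes; the lone library is then assumed to vary like the other group. The lowest host counts were those without replicate 1 of the libraries without auxin (193 and 80). Rises made up 83.4% of host calls, and 76.8 to 85.7% over the alternatives. Of 39 called named genes 22 kept the call in each of the 9 fits that gave them an adjusted p, 17 lost it in at least 1, and 0 reversed. DESeq2 gave an adjusted p for only 26 of the 39 and called 19 of them.

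The labels number the RNA libraries alike in both groups but tie no numbers together. Same-numbered libraries deviated together with r = 0.227 over 13522 genes, which are not independent replicates. With the replicate block 6149 genes, 460 hosts, 190 hosts with a bare 5′ end and 547 nearest genes were called, and Cdh13 (adjusted p = 0.0423), Unc5a (0.0119), Ltbp3 (0.00299) and Grin1 (0.0218) were called in addition, while no named gene lost its call. Groups of 2 libraries and peak lists of 1 sample limit all counts; the peak lists give no depth, and the cause of each change with a setting was not tested.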

Other observations

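Genes with many regions that the naming rule did not reach, chosen after their values were seen, moved in both directions. Prdm16, a zinc finger factor of brown fat and blood stem cells, held 47 regions and went from 8.36 and 8.48 CPM without auxin to 15.0 and 16.2 with it (1.86-fold, edgeR adjusted p = 0.000579). Celf4, a neuronal RNA-binding protein, held 48 regions and went from 21.8 and 24.5 to 17.3 and 15.6 CPM (1.41-fold lower, adjusted p = 0.00694). Both have a ChIP-seq peak alone at the 5′ end.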
